A study of Mus musculus with 11 samples.

Results

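The genes described here encode nuclear subunits of complexes II to V of the mitochondrial respiratory chain, together with cytochrome c. Members were the rows of the count table whose Ensembl identifier belongs to a protein-coding mouse gene named Sdha to Sdhd, Uqcr, Cox4 to Cox8, Atp5, Cyc1 or Cycs. The rule used names alone and found 50 of the 53700 genes in the table: 4 for complex II, 9 for complex III, 1 for cytochrome c, 18 for complex IV and 18 for complex V. Of these, 46 passed the filter on low counts and were tested with 16639 genes in all. The other 4 were Cox7b2 and Cox8c, which had no read in any library, Cox8b, and a second Atp5o identifier with no read.

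RNA was sequenced in bulk from short-term haematopoietic stem cells (ST-HSCs, early blood progenitors with limited self-renewal), sorted from bone marrow of mice listed as C57BL/6j. All hosts carried a transplanted acute myeloid leukaemia with an internal tandem duplication in Flt3 and no Tet2, so these lesions are shared by every group. The host marrow either had CXCL12, a chemokine that holds stem cells in their niche (WT, Cre-negative hosts), or lacked it (KO, Cre-positive hosts); the promoter that drives Cre is not given in the sources used here. Treatment was cytarabine and doxorubicin, which damage dividing cells, given with the FLT3 kinase blocker quizartinib, and controls had vehicle. From the WT niche came 3 vehicle libraries, numbered 240, 253 and 265, and 3 treated ones, numbered 252, 262 and 266. From the KO niche came 2 vehicle libraries, 249 and 275, and 3 treated ones, 257, 263 and 276.

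Complex II (succinate dehydrogenase) passes electrons from succinate to ubiquinone and is also an enzyme of the citric acid cycle. Complex III passes them from ubiquinol to the small soluble carrier cytochrome c, and complex IV (cytochrome c oxidase) passes them on to oxygen. Complexes III and IV pump protons across the inner membrane, and complex V (ATP synthase) uses the return flow to make ATP. All complex II subunits come from nuclear genes, while the core of complexes III, IV and V also holds subunits made from mitochondrial DNA. Quiescent haematopoietic stem cells are known to draw largely on glycolysis, and many leukaemic stem cells in acute myeloid leukaemia on this pathway.

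Reads assigned to genes ran from 8.13 to 31.1 M per library, and members took 0.893% to 2.01% of them. Cxcl12, the gene deleted in the host, was at 0 to 14.4 CPM (counts scaled to the size of each library) in these sorted cells, which cannot check a deletion in other host cells. Of the stem and progenitor markers, Kit ranged from 20.6 to 243 CPM, while Slamf1 was at 0 in 4 libraries. Summed CPM of 15 erythroid genes was at least 17750 in KO vehicle 275 and in all KO treated libraries (47190, 22610 and 109700) and at most 1140 in the other 7. That of 18 granulocyte genes ran from 11520 in KO treated 263 to 167500 in WT treated 266. Reads outside genes made up 5.98% to 30.4%, the highest share being that of KO treated 257. Libraries also differed in how expression related to transcript length. The Spearman rho across genes was 0.02 to 0.25 in the 5 vehicle libraries, -0.31 to -0.41 in the WT treated libraries, -0.24 in KO treated 257, and 0.36 and 0.37 in KO treated 263 and 276. Members are short, with a median transcript of 736 nucleotides (nt) against 2312 nt for all tested genes, so the same comparison is given below with each library's length trend removed. KO treated 257 stood apart from 263 and 276, and results that rest on it are given with and without it. Over the better-counted genes, however, the WT vehicle libraries agreed least with each other (pairwise Pearson r of log2 CPM 0.778, 0.801 and 0.658). KO treated 257 had an r of 0.893 with 263 and 0.855 with 276. WT vehicle 253 had the fewest genes detected (13589), and WT vehicle 265 the fewest reads assigned to genes.

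As a class the subunit genes were among the most abundant messages. Per kilobase of transcript, 41 of the 46 tested members lay in the top decile of all tested genes, with a median of 324 CPM per kilobase over the group means. The highest were Cox4i1 (805), Atp5b (799.9) and Uqcr11 (763.7 CPM per kilobase), and the lowest were Cox7a1 (3.23), Cox4i2 (9.62), Cox6a2 (10.1) and Atp5s (12.1). Within complex II the order was Sdhb (255), Sdhd (243), Sdha (120) and Sdhc (47.5 CPM per kilobase). Uqcrc2 was lowest in complex III at 70.4, and Cycs stood at 69.0 CPM per kilobase.

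Nearly every member had a higher scaled share of reads in treated than in vehicle libraries of the WT niche, but none passed the test. The mean log2 CPM of the 46 members was 6.999, 7.01 and 6.79 in the WT vehicle libraries and 8.08, 7.92 and 7.89 in the WT treated libraries, so the groups did not overlap. KO vehicle libraries stood at 6.93 and 6.92, level with WT vehicle. KO treated libraries split: 257 was the highest of all at 8.17, and 263 and 276 were at 6.63 and 6.80, among the 3 lowest of the 11. Counted gene by gene, 40, 40 and 39 of 46 members in WT treated 252, 262 and 266 were above all 5 vehicle libraries, against 21.8% to 25.3% of all genes. In KO treated 257 the count was 35, in 263 it was 0 and in 276 it was 4, against 25.3%, 16.8% and 17.5% of all genes.

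**Figure D1:**
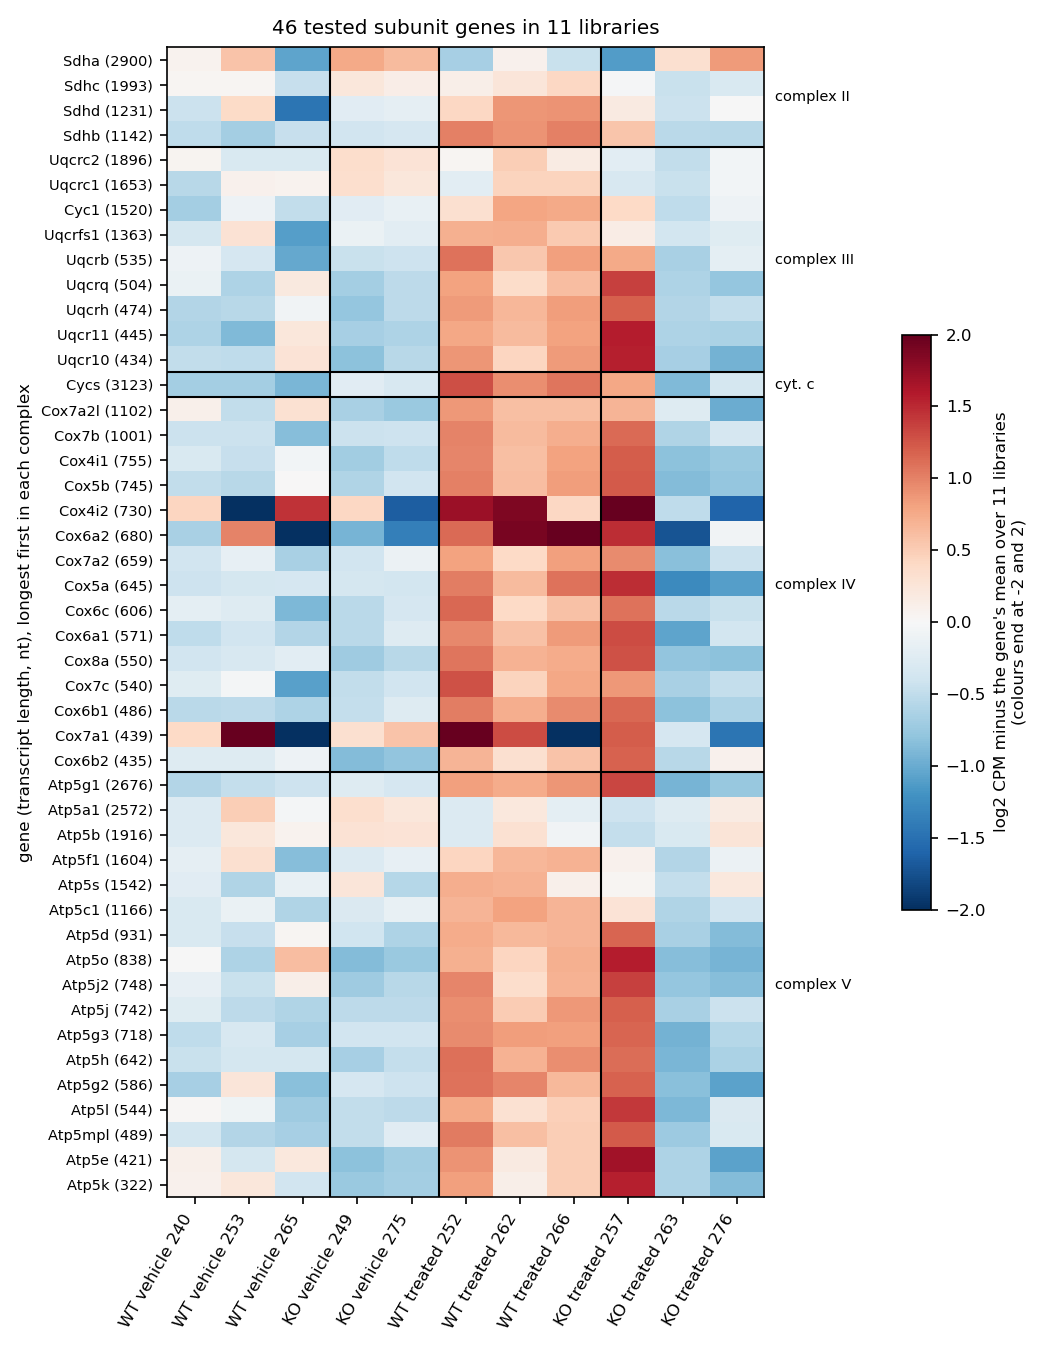
Log2 CPM of each of the 46 tested members (rows, by complex, longest transcript first) in each of the 11 libraries (columns, by group), as the difference from the gene's mean over the libraries. The 3 WT treated columns and KO treated 257 are red for most short members, and KO treated 263 and 276 are blue, while Sdha, Uqcrc1, Atp5a1 and Atp5b do not follow them.

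Removing the length trend narrowed these differences. On that scale the members' mean was 7.07, 7.66 and 7.21 in WT vehicle, 7.24 and 7.16 in KO vehicle, and 7.43, 7.43 and 7.51 in WT treated libraries. The KO treated values were 7.64, 6.76 and 7.15 for 257, 263 and 276. WT vehicle and WT treated then overlapped, since 253 was above all 3 treated libraries. Markers of lymphocytes were also mostly positive for treatment in the WT niche: 10 of 10 B-lymphoid genes were positive (median 3.89) and 10 of 12 T and NK genes (median 3.02). Their summed CPM was 399 to 514 in WT vehicle and 414 to 717 in WT treated libraries for the B-lymphoid list, and 566 to 773 and 1023 to 1789 for the T and NK list. Nkg7 alone had a mean of 1264 CPM in WT treated libraries, so the T and NK sum there was mostly that gene. Ms4a1 was at 0 in all WT vehicle libraries and at most 1.30 CPM in WT treated ones, and Cd3e was at most 0.12 CPM in both. Of 18 granulocyte genes, 12 were positive and 6 negative (median 0.40). Their summed CPM was far larger, at 39990, 104800 and 60970 in WT vehicle and 32040, 44730 and 167500 in WT treated libraries. The part of any of these lists in the members' difference was not tested. In bulk RNA, fewer cells of a type and less RNA per cell cannot be told apart.

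**Figure D2:**
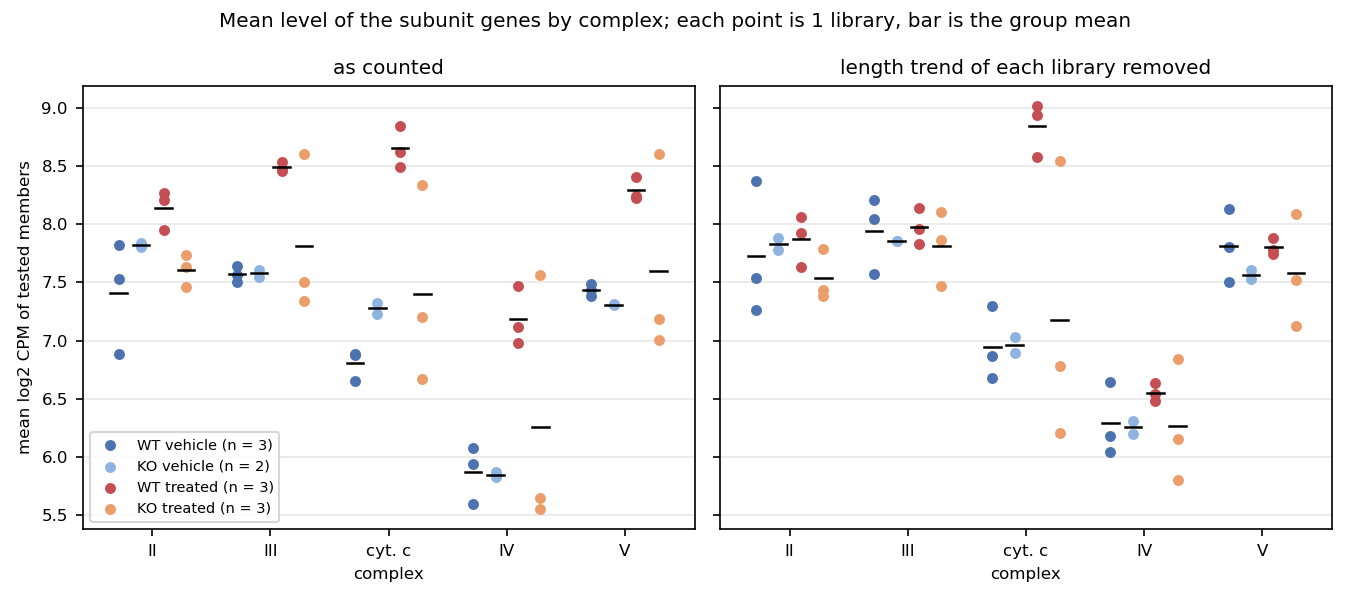
Mean log2 CPM of the tested members of each complex (y axis) by library (points) and group (colours), with group means as bars, as counted (left) and after each library's trend with transcript length was removed (right). WT treated libraries lie above WT vehicle for all 4 complexes and cytochrome c on the left, and on the right these groups overlap except for cytochrome c.

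In the WT niche, 43 of 46 members had a positive log2 fold change with treatment and 3 a negative one (52.6% and 47% of all tested genes), with a median of 1.06 against 0.09 for all genes. With edgeR's quasi-likelihood test, 0 members and 0% of genes passed an adjusted p of 0.05. The smallest adjusted p among members was 0.172. At an unadjusted p under 0.05, 23 members were higher and 0 lower, where 10.1% and 8.11% of all genes were. The groups did not overlap, with all treated libraries higher, for 36 members, against 17.5% of all genes. The medians by complex were 0.72 for complex II, 0.94 for III, 1.15 for IV and 0.85 for V. Genes of 500 to 1000 nt had a median of 0.93 over all 1980 tested, and genes of the longest class (median 5194 nt) one of -0.43. With the length trend removed, 27 members were positive and 19 negative with a median of 0.05, where all genes had -0.296. DESeq2 called 4 members higher (511 of 16639 genes were). Without KO treated 257, edgeR called 24 higher and 0 lower (3.45% and 2.74% of genes). That library is of neither group but enters the filter and the shared estimate of spread.

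**Figure D3:**
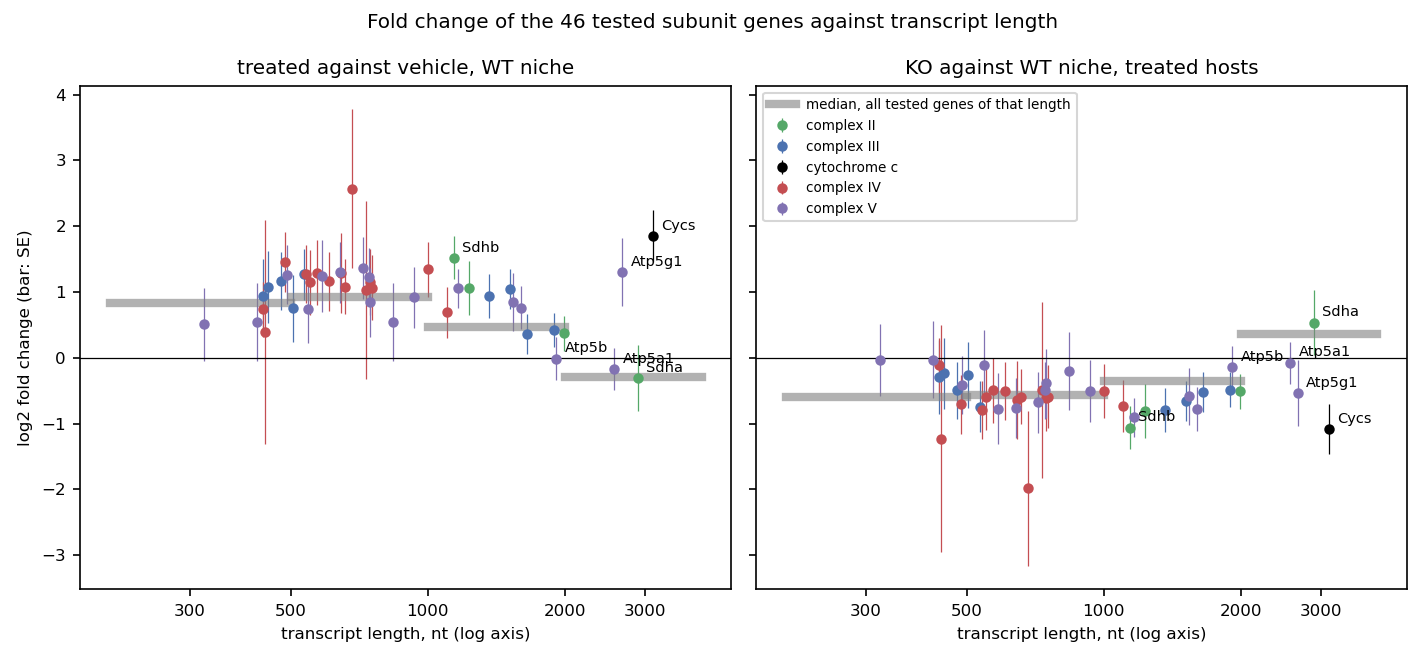
Log2 fold change with its SE (y axis) of each tested member against transcript length (x axis, log scale), coloured by complex, for treated against vehicle in the WT niche (left) and KO against WT niche in treated hosts (right). Grey bars are medians of all tested genes of that length: Cycs, Sdhb, Cox7b, Cox6a2 and Atp5g1 are among those above the bar on the left, Cycs and Cox6a2 among those below it on the right, and Atp5g1 is drawn at the median of annotated lengths that span 596 to 4715 nt.

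In complex II, Sdhb, Sdhc and Sdhd had positive values for treatment in the WT niche and Sdha a negative one. Sdha encodes the flavoprotein that oxidises succinate, Sdhb the iron-sulphur subunit that carries the electrons, and Sdhc and Sdhd the membrane anchor. The promoters of the first pair are shown because they differ in the motifs they hold. They are RefSeq windows of build GRCm38.p6, from 250 bases before the annotated start to 30 after it, written 5′ to 3′ on the strand of the gene. Capitals mark matches on either strand to the NRF1 motif (GCGCA, any base, GCGC, bound by a regulator of respiratory genes), to CCGGAAG (bound by ETS factors such as GABPA) or to AANATGGCG (YY1). Sdha (chr13:74350211-74350490, minus strand) holds 3 NRF1 matches, and Sdhb (chr4:140961021-140961300, plus strand) holds 1 ETS match.
Sdha: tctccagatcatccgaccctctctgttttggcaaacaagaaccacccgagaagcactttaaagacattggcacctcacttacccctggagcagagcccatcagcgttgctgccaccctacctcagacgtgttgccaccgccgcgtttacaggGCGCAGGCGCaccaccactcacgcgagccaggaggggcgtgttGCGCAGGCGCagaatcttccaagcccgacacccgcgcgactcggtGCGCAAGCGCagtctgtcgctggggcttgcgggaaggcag
Sdhb: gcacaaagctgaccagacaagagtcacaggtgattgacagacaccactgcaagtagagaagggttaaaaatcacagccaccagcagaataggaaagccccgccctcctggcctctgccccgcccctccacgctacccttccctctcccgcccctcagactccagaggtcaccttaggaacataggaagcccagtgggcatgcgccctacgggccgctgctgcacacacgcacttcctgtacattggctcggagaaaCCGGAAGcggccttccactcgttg

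Over the 33 tested members with a RefSeq window of that name, 10 (30.3%) held the NRF1 letters, 12 (36.4%) the ETS letters and 2 (6.06%) the YY1 letters. Of 27025 genes with a window, tested here or not, 4.98%, 9.48% and 2.13% did. The share among tested genes alone was not computed. The SP1 letters GGGGCGG, searched in the same way, were in 8 members (24.2%) and in 24.8% of genes. No one of these motifs contains another. A match describes the letters in the window and is not evidence of binding.

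Sdhb stood at 187, 167 and 195 CPM in WT vehicle, 204 and 212 in KO vehicle, 537, 500 and 536 in WT treated, and 390, 183 and 181 in KO treated libraries. The WT treated values lay above all others, and KO treated 257 came next. Its log2 fold change with treatment in the WT niche was 1.52 ± 0.33 (SE, adjusted p = 0.172 by edgeR), and 0.55 with the length trend removed. Sdha was at 317, 448 and 146 CPM in WT vehicle, 513 and 469 in KO vehicle, 190, 322 and 222 in WT treated, and 140, 379 and 546 in KO treated libraries. Its groups overlapped in treated hosts and in the WT niche, with log2 fold changes of -0.31 ± 0.50 for treatment in the WT niche and 0.54 ± 0.50 for KO against WT in treated hosts. The first turned to 0.079 without WT vehicle 253 and to 0.063 with voom. The second was 0.012 without KO treated 276 and 0.915 without KO treated 257. Sdhd was at 1.06 ± 0.41 (adjusted p = 0.22) and Sdhc at 0.37 ± 0.26 (adjusted p = 0.47) for treatment in the WT niche by edgeR.

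The ratio of Sdhb to Sdha counts, which needs no scaling between libraries, showed the same split. It was 0.59, 0.37 and 1.33 in WT vehicle, 0.40 and 0.45 in KO vehicle, and 2.82, 1.55 and 2.42 in WT treated libraries. In KO treated libraries it was 2.80, 0.48 and 0.33. The 4 libraries above 1.5 are the 4 with a negative relation of expression to transcript length, and Sdha (2900 nt) is longer than Sdhb (1142 nt). A ratio of 2 genes shows unequal change and not which of them changed.

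**Figure D4:**
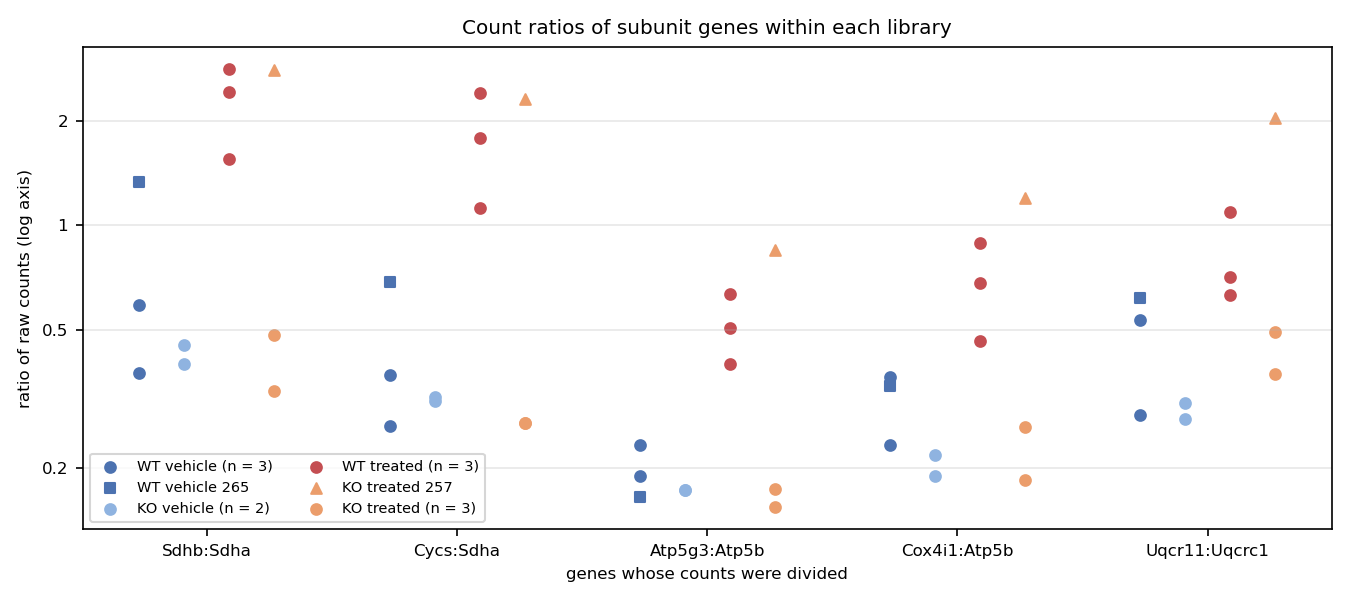
Ratio of raw counts of a pair of subunit genes (y axis, log scale) in each library (points, coloured by group), with KO treated 257 as a triangle and WT vehicle 265 as a square. For Sdhb to Sdha the WT treated libraries and KO treated 257 lie at 1.55 to 2.82 and the other 7 at 0.33 to 1.33.

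In complex III all 9 members had positive values for treatment in the WT niche, and 7 had groups apart. Cyc1, the haem subunit that hands electrons to cytochrome c, was at 175, 261 and 199 CPM in WT vehicle and at 350, 486 and 472 in WT treated libraries, without overlap. KO vehicle libraries were at 241 and 252 CPM and KO treated ones at 369, 198 and 261. Its log2 fold change with treatment in the WT niche was 1.04 ± 0.31 (edgeR adjusted p = 0.177), and 0.26 with the length trend removed. Uqcrb, a small subunit near the quinone site, was at 1.27 ± 0.39 and Uqcrfs1, the Rieske iron-sulphur protein, at 0.94 ± 0.34 (edgeR adjusted p = 0.177 and 0.204). The short Uqcrh (474.5 nt), Uqcr11, Uqcr10 and Uqcrq had groups apart as well. Of the large core proteins, Uqcrc1 was at 0.36 ± 0.30 and Uqcrc2 at 0.42 ± 0.26, and for each the WT groups overlapped. With the length trend removed, both turned negative (-0.34 and -0.07). Uqcrc2 shares 19.7% of its exon bases with Pdzd9 on the other strand, which the counting may have set aside or assigned wrongly.

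For treatment in the WT niche, the value of cytochrome c hardly moved when the length trend was removed. Cycs, which also triggers caspases when it leaves the mitochondrion, has the longest transcript by the per-gene median used here (3123 nt). Its promoter (chr6:50566540-50566819, minus strand) is shown in the same window as an example with no exact match to any searched motif. Other members, among them Atp5g1 and Cox5a, had no match either. Only exact letters were searched, so a site with a changed base is not marked.
Cycs: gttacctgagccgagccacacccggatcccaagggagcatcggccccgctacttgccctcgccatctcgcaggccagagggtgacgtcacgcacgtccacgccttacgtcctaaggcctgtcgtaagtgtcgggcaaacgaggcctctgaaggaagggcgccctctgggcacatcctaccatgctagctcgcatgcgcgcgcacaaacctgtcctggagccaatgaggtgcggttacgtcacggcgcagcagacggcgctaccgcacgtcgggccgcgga

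Cycs stood at 118, 118 and 100 CPM in WT vehicle, 160 and 150 in KO vehicle, 459, 360 and 394 in WT treated, and 323, 102 and 147 in KO treated libraries. All WT treated libraries were above all others, and KO treated 257 followed them. For treatment in the WT niche its log2 fold change was 1.85 ± 0.39 (edgeR adjusted p = 0.172) and 1.88 with the length trend removed (adjusted p = 0.18). That was the smallest unadjusted p of any member (0.000528), at rank 30 of 16639 genes. DESeq2 gave an adjusted p of 0.00371 for the same difference, and edgeR gave 0.00882 without KO treated 257. The count ratio of Cycs to Cyc1 was 0.45 to 0.67 in WT vehicle and 0.74 to 1.31 in WT treated libraries.

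For complex IV, all 15 tested members had a positive log2 fold change with treatment in the WT niche, and 13 had groups that did not overlap. Cox4i1, the ubiquitous form of the largest nuclear subunit, was at 447, 401 and 533 CPM in WT vehicle, 340 and 391 in KO vehicle, 1087, 844 and 963 in WT treated, and 1280, 314 and 329 in KO treated libraries. KO treated 257 was thus the highest library, and 263 and 276 were the lowest. Cox4i1 gave 1.07 ± 0.49 (edgeR adjusted p = 0.274), and -0.02 with the length trend removed. The 2 smallest p values of the complex belonged to Cox7b (1.35 ± 0.42) and Cox6b1 (1.46 ± 0.46), both at an adjusted p of 0.177 by edgeR. Cox5a, which sits beside Cox4i1 in the complex, was at 1.29 ± 0.60 (edgeR adjusted p = 0.281), and its SD over the KO treated libraries (107 CPM, n = 3) exceeded its mean there (96.2 CPM).

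The promoter of Cox6a1 (chr5:115348929-115349208, minus strand) is shown as the only matched member with both kinds of match and more than 1 of the NRF1 kind, marked in capitals as above.
Cox6a1: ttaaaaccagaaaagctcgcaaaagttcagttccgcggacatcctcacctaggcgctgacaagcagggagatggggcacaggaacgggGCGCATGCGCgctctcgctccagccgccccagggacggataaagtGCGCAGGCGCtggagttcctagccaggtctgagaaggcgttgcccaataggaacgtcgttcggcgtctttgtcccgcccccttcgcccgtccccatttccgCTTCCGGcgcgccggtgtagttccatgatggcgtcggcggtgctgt

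Several complex IV subunits come from a pair of genes, 1 widely used and 1 known from heart, skeletal muscle, lung or testis. The widely used gene carried nearly all reads in every library. Per kilobase, Cox4i2 made a median of 1.24% of the Cox4i pair, Cox6a2 0.85% of the Cox6a pair and Cox7a1 1% of the Cox7a1 and Cox7a2 pair. Cox6b2, known from testis, made a larger share: 9.25% at the median, from 6.45% in KO vehicle 275 to 14.1% in KO treated 276. Cox8b was read only in WT vehicle 253 (76 counts), WT treated 252 (12) and KO vehicle 275 (1), and Cox8c and Cox7b2 in none, where 3 counts correspond to 0.0879 to 0.369 CPM and cover counting error only. Cox6a2 was uneven, at 2.13, 6.82 and 0.12 CPM in WT vehicle and 7.55, 12.9 and 34.1 in WT treated libraries (2.57 ± 1.21, edgeR adjusted p = 0.282). 

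**Figure D5:**
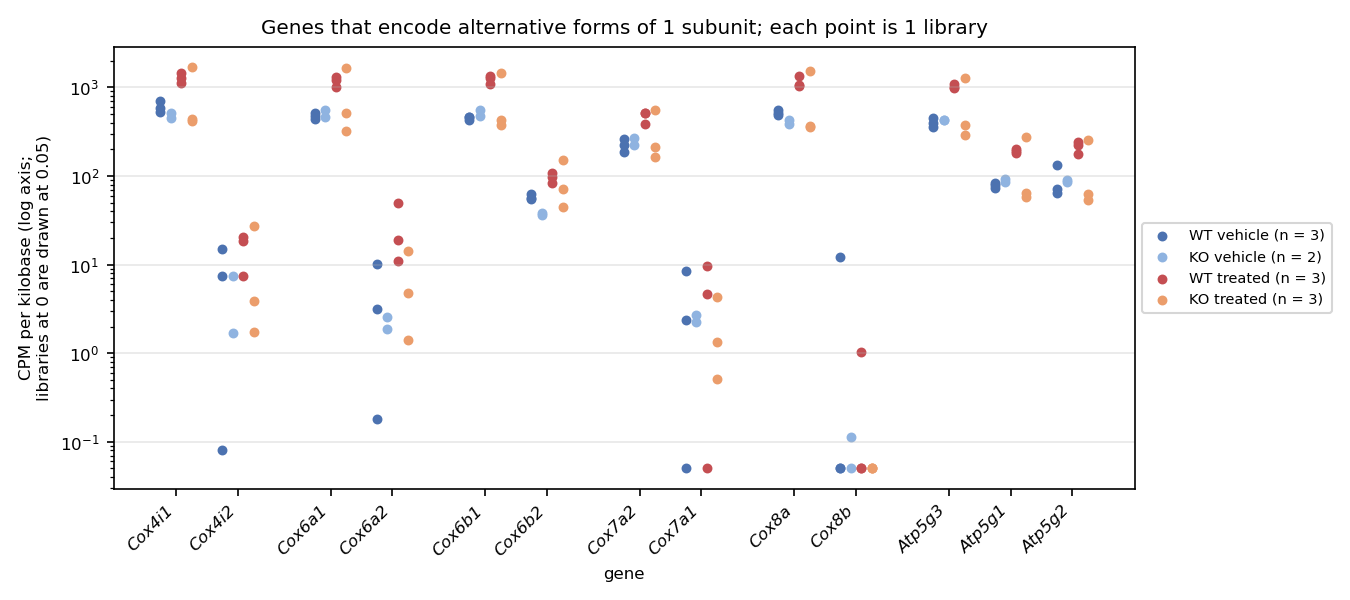
CPM per kilobase of transcript (y axis, log scale) of genes that encode alternative forms of 1 subunit, by library (points) and group (colours). Cox4i1, Cox6a1, Cox7a2 and Cox8a lie far above Cox4i2, Cox6a2, Cox7a1 and Cox8b in every library, Cox6b2 lies closer to Cox6b1, and Atp5g3 is above Atp5g1 and Atp5g2.

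In complex V, 15 of 17 tested members had positive values for treatment in the WT niche, and those of the alpha and beta subunits were negative. Atp5a1 and Atp5b encode the alpha and beta subunits of the F1 head, where ATP is made, and Atp5c1 the gamma shaft that turns inside it. Atp5b was at 1223, 1726 and 1550 CPM in WT vehicle, 1802 and 1789 in KO vehicle, 1226, 1822 and 1412 in WT treated, and 1069, 1201 and 1776 in KO treated libraries. The WT groups overlapped, with a log2 fold change for treatment of -0.01 ± 0.33, and Atp5a1 was at -0.17 ± 0.32. The groups also overlapped for Atp5e, Atp5k and Atp5o. Atp5c1 was at 352, 398 and 287 CPM in WT vehicle and 693, 763 and 700 in WT treated libraries. KO vehicle libraries were at 356 and 392 CPM and KO treated ones at 529, 288 and 334. Its log2 fold change of 1.06 ± 0.30 (edgeR adjusted p = 0.173) was 0.08 with the length trend removed.

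Subunit c, whose ring turns in the membrane, is made from 3 genes that encode the same mature protein. Atp5g3 stood at 283, 325 and 255 CPM in WT vehicle, 311 and 310 in KO vehicle, 775, 723 and 716 in WT treated, and 905, 209 and 273 in KO treated libraries. All 3 genes were higher in WT treated than in WT vehicle libraries without overlap, at 1.36 ± 0.47 for Atp5g3, 1.30 ± 0.51 for Atp5g1 and 1.25 ± 0.55 for Atp5g2 (edgeR adjusted p = 0.192, 0.223 and 0.26). Per kilobase, Atp5g3 made a median of 71.2% of the 3, Atp5g2 14.3% and Atp5g1 14%. These shares depend on the length taken for Atp5g1, whose annotated transcripts span 596 to 4715 nt: at 596 nt, a choice made after the data were seen, the shares were 47.9%, 9.37% and 42.2%. The Atp5g3 promoter (chr2:73911297-73911576, minus strand), shown because Atp5g3 followed the other members most closely, holds 1 NRF1 match after the start.
Atp5g3: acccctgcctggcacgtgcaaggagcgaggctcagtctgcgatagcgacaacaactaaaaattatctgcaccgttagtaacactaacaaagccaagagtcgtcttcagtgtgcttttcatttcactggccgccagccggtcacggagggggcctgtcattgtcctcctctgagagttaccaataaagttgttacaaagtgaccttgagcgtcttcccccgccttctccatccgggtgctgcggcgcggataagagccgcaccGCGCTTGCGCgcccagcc

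Similarity among members was described by the Pearson r of each gene's log2 CPM with the mean of the other tested members over the 11 libraries. It was above 0.9 for 24 of 46 members and highest for Atp5g3 (0.995), Cox6b1 (0.988) and Atp5h (0.984). Sdha (-0.61), Atp5a1 (-0.42) and Atp5b (-0.38) had negative values, and Uqcrc1 (0.14) and Uqcrc2 (0.32) had low ones. All points share libraries, depth and the length trend. The 5 genes outside the set most like the members' mean over the 11 libraries were Ndufb9, a complex I subunit (0.993), the proteasome genes Psmb6 (0.993) and Psmb4 (0.989), Rps27l, a ribosomal protein relative (0.991), and Snrpg, a splicing factor subunit (0.989).

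Loss of CXCL12 in the niche of treated hosts went with lower group means of nearly all members, none past the test. The members' mean log2 CPM was 8.17 in KO treated 257, above all WT treated libraries, and 6.63 and 6.80 in 263 and 276. The log2 fold change was negative in 45 of 46 members and positive in 1 (46.1% and 53.9% of all tested genes), with a median of -0.53 against 0.10 for all genes. By edgeR's quasi-likelihood test 0 members and 0% of genes passed, Sdhb having the smallest adjusted p (0.405). DESeq2 called 0 members too (217 of 16639 genes higher and 32 lower). Unadjusted, 5 members were lower and 0 higher at p under 0.05, where 3.50% and 7.13% of genes were. The groups did not overlap, with all KO libraries lower, for 8 members, against 9.56% of genes, and with all KO libraries higher for 0, against 9.71%. Genes of 500 to 1000 nt had a median of -0.57 and genes of the longest class one of 0.76. With the length trend removed, 36 members were negative with a median of -0.22, where all genes had 0.018.

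The number of members called depended on KO treated 257. Without it, edgeR called 30 members lower and 0 higher (4.88% and 4.38% of genes), the median was -1.32, and the smallest adjusted p was 0.00757. With all 11 libraries, another test, limma voom with a quality weight for each library, gave 41 members lower (11.9% of genes) and a median of -1.21. Such weights can count a library that stands apart for less, and the weight of 257 was not recorded. The voom median lay near the one without 257, so the voom calls are not a separate check on that library. With the length trend removed and without 257 the median was -0.40 and edgeR called 0 members, with a smallest adjusted p of 0.0758, that of Cycs. The erythroid genes were higher in all 3 KO treated libraries, 257 included, with all 15 of 15 positive and a median of 6.75. Of 18 granulocyte genes 13 were negative and 5 positive, with a median of -1.64, and their summed CPM was 32040, 44730 and 167500 in WT treated and 35850, 11520 and 25250 in KO treated libraries. The part of either list in the members' difference was not tested.

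The 5 members past an unadjusted p of 0.05 were Sdhb (-1.06 ± 0.33), Cycs (-1.09 ± 0.38), Atp5c1 (-0.91 ± 0.30), Uqcrfs1 (-0.79 ± 0.34) and Atp5f1 (-0.78 ± 0.33), with edgeR adjusted p from 0.405 to 0.453. All 5 have transcripts above 1000 nt, as do 17 of the 46 tested members. Their WT treated libraries lay above all 3 KO treated ones, so that 257 was below the WT treated group for each of them. Sdhd (-0.82 ± 0.41), Sdhc (-0.51 ± 0.26) and Cyc1 (-0.66 ± 0.31) were also lower, and in Cyc1 the groups overlapped. In complex IV, Cox7a2l, a factor in joining complexes III and IV, was at -0.73 ± 0.39, Cox7c at -0.79 ± 0.44 and Cox6a2 lowest at -1.99 ± 1.18, and 0 of its 15 members had groups apart. Cox4i1 (-0.59 ± 0.48) and Atp5g3 (-0.67 ± 0.47) had overlapping groups because of 257 and were at -1.59 (edgeR adjusted p = 0.00886) and -1.62 (0.00854) without it. Sdha was the 1 member with a positive value. With the length trend removed, Cycs was at -1.32 and Sdhb at -0.61.

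Between WT and KO niches of vehicle hosts the members' direction depended on the processing. Of 46 members, 21 were positive (48.7% of all tested genes were) and 25 negative, with a median of -0.03. With a covariate for reads that fell outside genes, 39 were positive with a median of 0.38, where all genes had 0.009. With the length trend removed 37 were negative with a median of -0.17, which lay above the -0.337 of all genes. By edgeR 0 members and 0% of genes passed (smallest adjusted p 0.78 among members), and 0 members had an unadjusted p under 0.05, where 4.80% of genes were higher and 1.98% lower. DESeq2 called 0 members as well (178 of 16639 genes higher and 46 lower). Groups did not overlap for 9 members higher in KO and 10 lower, against 13.2% and 7.47% of genes, with only 2 KO libraries. Direction went with length here too: 15 of 17 members of at least 1000 nt were positive and 23 of 29 shorter ones negative. Those with the smallest p were Sdha (0.69 ± 0.55) and Sdhc in complex II, Uqcrc2 (0.49 ± 0.29) and Uqcrc1 (0.39 ± 0.34) in III, Cox7a2l (-0.71 ± 0.45) and Cox6b2 (-0.62 ± 0.48) in IV, and Atp5o (-0.89 ± 0.68) and Atp5e in V. Against the sign of their complex's median stood Uqcrq, Uqcr10, Uqcrh and Uqcr11 in III, Cox6b1, Cox7a2, Cox7b and Cox6a1 in IV, and Atp5b, Atp5a1, Atp5s, Atp5mpl, Atp5c1, Atp5g1 and Atp5g3 in V. Cycs was at 0.47 ± 0.42. Atp5o shares 47.9% of its exon bases with other genes, so its counts are uncertain.

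In the KO niche, treated against vehicle gave 39 positive and 7 negative members with a median of 0.66 (0.12 for all genes, 56.1% of which were positive and 43.7% negative). By edgeR 0 members and 0% of genes passed, all with an adjusted p of 1. An unadjusted p under 0.05 was reached by 1 member, Cox6b2 (1.24 ± 0.49), higher in all 3 treated libraries, and 0 members were lower, where 2.7% and 0.974% of genes were. DESeq2 called 0 members (20 of 16639 genes higher and 3 lower). Without KO treated 257 the median turned to -0.16, with 7 positive and 39 negative. Lists of markers of other cells had shared directions here: 15 of 15 erythroid genes were positive (median 2.29), 16 of 18 granulocyte genes negative (-0.97) and 10 of 10 megakaryocyte genes negative (-1.51). Megakaryocyte genes summed to 213 and 958 CPM in KO vehicle 249 and 275 and to 158 to 275 CPM in KO treated libraries. The part of these lists in the members' values was not tested. Uqcrc2 (-0.55 ± 0.29), Sdhc (-0.43 ± 0.29), Uqcrc1, Atp5a1 and Atp5b had groups that did not overlap, treated lower, against 10.1% of genes. Uqcrh (0.94 ± 0.50), Atp5e (1.28 ± 0.68) and Cycs (0.30 ± 0.43) overlapped, and the latter pair turned negative without 257. Apart from Sdhb and Sdhd, which were positive in a complex with a negative median, those against their complex's sign were Uqcrc2, Uqcrc1, Cox7a1, Atp5a1 and Atp5b.

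The interaction asks whether treatment moved the members differently in the KO and the WT niche. It was negative in 36 of 46 members and positive in 10 (46.4% and 53.6% of genes), with a median of -0.59 against 0.11 for all genes. By edgeR 0 members and 0% of genes passed (smallest adjusted p 0.767), and DESeq2 called 0 members (24 of 16639 genes higher and 34 lower). Unadjusted, 4 members had p under 0.05 and a negative value and 0 a positive one (3.27% and 3.04% of genes). The 4 were Cycs (-1.56 ± 0.56), Sdhb (-1.25 ± 0.48), Atp5c1 (-1.02 ± 0.44) and Uqcrc2 (-0.97 ± 0.39). Those with the next smallest p in their complexes, or the smallest in complex IV, were Sdhc (-0.80 ± 0.40), Uqcrc1 (-0.91 ± 0.46), Cox6b1 (-0.90 ± 0.67) and Atp5f1 (-0.73 ± 0.49). Without KO treated 257 the median was -1.19 and the smallest adjusted p by edgeR 0.0678. With the length trend removed the median was -0.10, where all genes had 0.336. All 5 comparisons draw on the same 4 groups, so their members' values are not independent of each other. Positive members were Uqcrq, Uqcr10 and Uqcr11 in III, Cox6b2 and Cox4i2 in IV, and Atp5e, Atp5k, Atp5o, Atp5l and Atp5j2 in V.

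Genes that build, surround or regulate these complexes were counted from lists chosen by function, and none passed edgeR's test. For treatment in the WT niche, 33 of 35 tested nuclear complex I genes were positive with a median of 1.09, and 34 of 35 were negative for KO against WT in treated hosts with a median of -0.64. Of the assembly factors in the first comparison, all 4 for complex II, all 6 for III, 19 of 22 for IV and all 5 for V were positive. Coa7 (1.98 ± 0.45) and Cox14 (1.80 ± 0.45) had the smallest p, at an adjusted p of 0.172. In the second comparison all 4, all 6, 18 of 22 and all 5 were negative. Atpif1, the inhibitor of ATP synthase, Ndufa4 and Usmg5, subunits of IV and V outside the naming rule, were positive in the first and negative in the second.

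Most of the 13 tested genes on mitochondrial DNA had the opposite sign to the members in these comparisons. All 13 were negative for treatment in the WT niche, with a median of -1.44. For KO against WT in treated hosts 11 of 13 were positive, with a median of 0.25. In the other comparisons the signs were not opposite in this way. For KO against WT in vehicle hosts all 13 were negative (median -1.24), and for treatment in the KO niche 7 were positive and 6 negative (median 0.015). mt-Co1, the catalytic subunit of complex IV, was at 72170, 56590 and 48740 CPM in WT vehicle, 28670 and 21300 in KO vehicle, 6568, 6569 and 49720 in WT treated, and 38780, 19630 and 28120 in KO treated libraries. WT treated 266 was thus within the vehicle range and its group overlapped with WT vehicle. Reads that match more than 1 place stand apart in the table's summary lines and in no gene, which makes values of genes with nuclear copies uncertain. Among 16 regulators of mitochondrial biogenesis, 14 were positive for KO against WT in treated hosts with a median of 0.74 and a median transcript of 3167 nt, led by Nrf1 (0.90 ± 0.38) and Polg (1.36 ± 0.60). Of 17 citric acid cycle genes 8 were positive and 9 negative in that comparison, with Ogdh at 1.76 ± 0.46 and Mdh2 at -0.75 ± 0.30.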

How the data were processed

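RNA of the sorted cells was prepared with an RNeasy Plus Micro kit, amplified with SMARTer Ultra Low Input v4 and made into libraries with Nextera XT, per the labels' protocols, and these kits do not keep the strand. The submitters' processing notes name build GRCm39 and, without roles, the aligner STAR 2.7.9a, the counter HTSeq (given as version 0.6.7), the trimmer Trim Galore 0.6.7, bcl2fastq and DESeq2. The deposited values are the authors' raw read counts per gene, with no normalization. The 5 HTSeq summary lines were left out. They held 5.98% to 30.4% of reads outside genes.

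Symbols (52147 of 53700 genes) and transcript lengths came from a GENCODE reference of an earlier build, matched by stable identifier. Lengths are the median over each gene's annotated basic transcripts. No gene coordinates on GRCm39 are given. Promoters and their coordinates are from RefSeq on GRCm38.p6.

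Testing used R 4.3.3 and edgeR 4.0.16: filterByExpr (16639 genes), TMM scaling and 1 robust quasi-likelihood model of the 4 groups with 5 contrasts, adjusted over all genes. The biological coefficient of variation was 0.783. SE follows from the test statistic. CPM uses TMM-scaled totals, and log2 CPM a prior count of 2. The length trend is a lowess fit (span 0.3) in each library, removed as an offset. Alternatives were DESeq2 1.42.0 (Wald test and size factors), limma 3.58.1 voom with quality weights, other filters, a covariate for reads outside genes, only the libraries compared, and leaving out libraries. Scripts were tested on simulated data. No 2 libraries of a group agreed within counting noise. The labels do not say whether libraries come from separate animals, so p-values measure the spread between these libraries.

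The genes named are fixed by role (catalytic and core subunits, paired isoforms) and by smallest p, extreme value or opposite sign within each complex. Members, lists and alternatives were chosen with earlier results of these data known.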

Additional observations from a re-analysis of the deposited data

How the results depend on the processing

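No named fold change passed the threshold with the settings used above, so none could lose significance under an alternative. For the 56 named fold changes under up to 21 alternatives each, 1088 values kept direction and side of the threshold, 50 kept direction and became significant, and 28 reversed. The cause was not tested. Members called for KO against WT in treated hosts were 0 to 30 when leaving out 1 library, and 41 with voom; for treatment in the WT niche they were 0 to 24, 3 with no filter, 4 with DESeq2 and 29 with the covariate for reads outside genes. KO treated 257 gave both maxima. All genes called were, for KO against WT in treated hosts, 43 with no filter, 249 with DESeq2, 4301 with voom and 0 to 1513 leaving out 1 library. In vehicle hosts they were 11, 224 (DESeq2) and 0 to 85 (without WT vehicle 240). For treatment they were 215, 1106, 2100 (covariate) and 0 to 1012 in the WT niche and 23 (DESeq2) in the KO niche, and for the interaction 58 (DESeq2) and 0 to 1.

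The members' median for KO against WT in treated hosts was -0.975 with the covariate, -1.21 with voom and -1.32 to -0.23 leaving out 1 library. For treatment in the WT niche it was 1.83 with the covariate, 0.049 with the length trend removed and 0.045 also without 257. In vehicle hosts it was 0.379 with the covariate, -0.169 with the length trend removed and -0.086 to 0.138 leaving out 1 library. For treatment in the KO niche it was 0.309 with the covariate, -0.15 with voom, 0.046 with the length trend removed, -0.18 also without 257, and -0.16 to 0.997 leaving out 1 library. For the interaction it was -1.18 with voom, -1.38 with the covariate, -0.10 with the length trend removed and -1.19 to -0.22 leaving out 1 library. The median of all genes moved too. With the length trend removed it was 0.018 and -0.337 for KO against WT in treated and vehicle hosts. It was then -0.296 and -0.016 for treatment in the WT and KO niche, and 0.336 for the interaction.

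Reversed for treatment in the WT niche: Atp5b was 0.031 at a mean CPM of 10, 0.17 with voom, 0.40 without WT vehicle 253 and 265, 0.006 with only the libraries compared, and -0.18 to 0.11 leaving out 1 library. Atp5a1 was 0.095 with voom, 0.31 without both, and -0.335 to 0.074. Sdha was 0.063 with voom and -0.64 to 0.079. With the length trend removed Sdhc was -0.073, Uqcrc1 -0.335, Uqcrc2 -0.072 and Cox4i1 -0.020, and without 257 too -0.069, -0.333, -0.069 and -0.025. In vehicle hosts, KO against WT of Atp5o was 0.22 with the covariate and of Cycs -0.008 with the length trend removed. For treatment in the KO niche Cycs was -0.40 with voom, -0.44 with the length trend removed without 257 and -0.32 to 0.64 leaving out 1 library; Atp5e was -0.14 and -0.080 to 1.73.

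Subunit c shares moved with the length of Atp5g1 (42.2%, 9.37% and 47.9% for Atp5g1, Atp5g2 and Atp5g3). No paired analysis was possible because no replicate number is shared between groups. Groups of 2 or 3 libraries limit the precision.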
